A study of Homo sapiens with 12 samples.

Results

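The second week of osteogenic differentiation was followed in SaOS-2 cells carrying the labels of CD99 transfectants. SaOS-2 is a human osteosarcoma cell line with osteoblast features, and CD99 is a cell surface glycoprotein. Clones wt22 and wt36 (Sa/CD99) were derived from it by calcium phosphate transfection with CD99 and neomycin selection. The comparison took every array titled Sa/CD99 at day 14 and at day 7 of osteogenic medium, which are 4 of the 12 arrays of the series, and paired them by clone. Each clone is 1 selected line with 1 array per day, so neither clone has a replicate of its own. Untransfected SaOS-2 cells in the same medium, with 2 arrays per day, served as the parental comparison, and arrays of day 0, before osteogenic medium, were read beside the others. Labelled cRNA was hybridised to Affymetrix HG-U133 Plus 2.0 arrays, and levels are log2 signals after robust multi-array averaging (RMA) by the authors. A gene was stood for by the brightest probe set that names it alone. Genes were kept where the signal was above 100 in at least 4 of the 12 arrays, and 9731 of the 19775 genes named on the array passed.

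Osteoblasts in osteogenic medium leave the cell cycle, lay down a matrix rich in type I collagen and then mineralise it. RUNX2 and SP7 are the transcription factors that commit cells to this lineage. Alkaline phosphatase (ALPL) frees phosphate for mineral, and bone sialoprotein (IBSP) is a late matrix protein that binds mineral. The question of the comparison was which genes moved between day 7 and day 14, after the first response to the medium.

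CD99 was read first. One of its 2 probe sets was near the top of the scale, at 12.64 in wt22 and 12.55 in wt36 at day 7 and at 12.74 and 12.67 at day 14, and the parental arrays of those days lay between 12.51 and 12.66. The other probe set gave lower signals for the clones, at 8.36 and 6.73 at day 7 and 8.24 and 8.88 at day 14, than for the parental line, whose arrays lay between 11.55 and 11.88. Neither probe set was therefore clearly higher in the arrays labelled as transfected. The comparison of days within the clones is made among arrays that all carry that label. It does not check the label, which chose the arrays and their pairing. Whether the transfected sequence reaches these probe sets was not tested. The study's methods describe a separate check of CD99 expression by real-time PCR in both lines on all days, which was not analysed here. CD99 itself did not pass the test between the days in its brighter probe set, with a log2 change of 0.11 ± 0.10 (SE) and an adjusted p of 0.45 (limma). The other probe set changed by 1.02 ± 0.42 and did not pass either (adjusted p = 0.11, limma). Its changes were -0.11 in wt22 and 2.15 in wt36. Of 10 osteoblast markers 8 were measured and all 8 were past the signal floor, whereas no endothelial and no adipocyte marker was. Past the floor were also 1 of 7 measured leukocyte markers, 2 of 7 epithelial and 1 of 6 skeletal muscle markers. The muscle markers summed to 368 to 394 in linear signal at day 7 and to 447 to 461 at day 14.

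The day 7 arrays stood apart in their added controls. The 24 probe sets for poly-A control RNAs, which are bacterial transcripts added to a sample before labelling, averaged 3.94 in wt22 and 3.88 in wt36 at day 7. They averaged 8.22 and 7.63 at day 14 and 7.59 and 7.58 at day 0. The 4 day 7 arrays of both lines lay between 3.82 and 3.94, and the 8 arrays of the other days between 7.33 and 8.22, so that none of the 24 probe sets overlapped. The 18 probe sets for hybridization controls, added after labelling, lay between 9.90 and 10.30 on all 12 arrays. The day 7 arrays of both lines thus carry little of these controls, and array preparation and day cannot be told apart in any change given here that uses a day 7 array. For ACTB the 3' probe set exceeded the 5' one by 0.18 and 0.46 in wt22 and wt36 at day 7, by 0.19 and 0.21 at day 14. The part of RNA ends in the results was not tested.

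**Figure D1:**
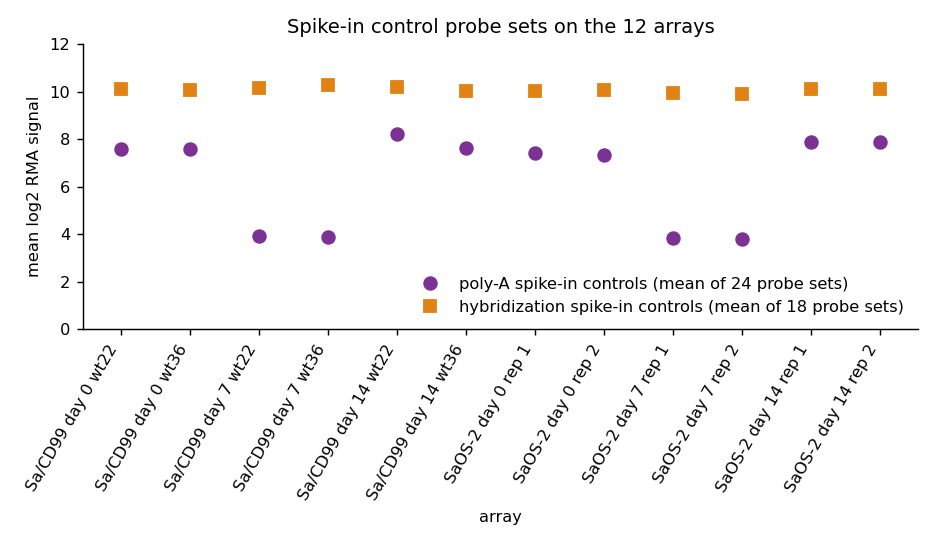
Mean log2 RMA signal (vertical axis) of the poly-A control probe sets (circles, 24 probe sets) and of the hybridization control probe sets (squares, 18 probe sets) on each of the 12 arrays (horizontal axis). The poly-A controls lie near 4 on the 4 day 7 arrays and above 7 on the 8 others, while the hybridization controls stay near 10 on all.

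Between day 7 and day 14 more genes passed the test as falling than as rising in the arrays labelled Sa/CD99. A matrix gene, COL3A1, rose most, and the motor protein KIF18A fell most. Of the 9731 genes, 198 rose (2.03%) and 803 fell (8.25%) by at least 1.5-fold at an adjusted p of at most 0.05 (limma, with the clone as a block). Over all genes, called or not, the tally ran the other way: both day 14 arrays lay above both day 7 arrays in 34.4% of all genes and below them in 24.6%, and the median change of all genes was 0.07. Among called genes the falls were the larger: 253 genes fell and 15 rose by at least 2-fold, and the median change was -0.84 among the genes that fell and 0.67 among those that rose. Over the 18677 probe sets, including those without a gene name, 402 rose (2.15%) and 1958 fell (10.5%). Among the called genes 19.8% rose, and after a second quantile normalization of the tested probe sets 31.9% did, with 317 rises and 678 falls. Without the clone block 125 genes rose and 571 fell. The counts rest on single arrays: 25 genes rose and 64 fell without wt22 at day 7, 12 and 81 without wt36 at day 7, and 60 and 179 without wt22 at day 14. Without wt36 at day 14, 308 rose and 963 fell. In none of these settings was a gene called in the opposite direction. The labels do not say that the parental arrays came from separate cultures, so the tests gauge no more than how far these arrays vary. In such bulk samples, fewer cells of a type and less RNA per cell cannot be told apart.

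The change had the same sign in both clones in all 198 genes that rose and all 803 that fell. The calls rest on the mean change of these same arrays, which by itself favours genes whose clones agree. Each clone on its own passed 1.5-fold in 83 of the genes that rose and in 550 of those that fell. Clone wt22 moved further than wt36 in 675 of the 803 genes that fell, with median changes of -0.99 and -0.72, and in 100 of the 198 that rose, with medians of 0.69 and 0.70. Changes were also wider in wt22 over all genes, with an SD of 0.46 against 0.38 in wt36. Over all 9731 genes the 2 clones' changes had a correlation of 0.75, a description across genes, which are not independent replicates. Only 17 genes passed 1.5-fold in opposite directions in the clones, against 90 upwards and 579 downwards in both.

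**Figure D2:**
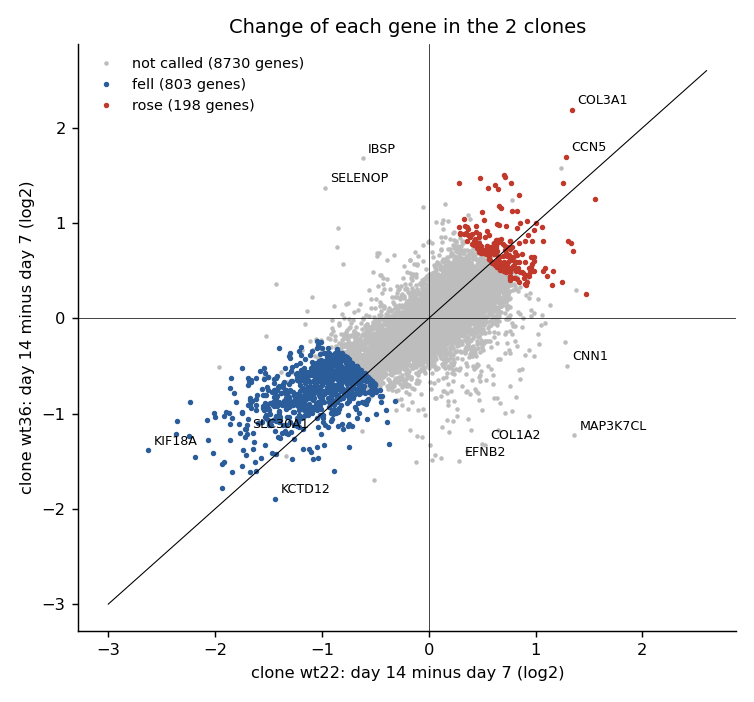
Log2 change from day 7 to day 14 in clone wt22 (horizontal axis) and clone wt36 (vertical axis) for the 9731 genes, a point each, with the 198 genes that rose in red, the 803 that fell in blue and the line of equal change in black. Most blue points lie above the line, where wt22 fell further, and a few grey genes such as IBSP and COL1A2 moved in opposite directions.

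Genes of the extracellular matrix were among the largest rises. COL3A1, the chain of type III collagen, was at 8.78 in wt22 and 7.82 in wt36 at day 7 and at 10.13 and 10.01 at day 14. Both day 14 arrays were above both day 7 arrays, and the change was 1.77 ± 0.36 (SE, adjusted p = 0.0099). It was 1 of 14 tested collagen chains, of which no other passed, and the list had a median of -0.03 against 0.07 over all genes. The share of rises over all genes was 2.03%. CCN5, a secreted matrix protein that also counts among Wnt-induced genes, went from 6.63 and 5.89 to 7.91 and 7.58 (1.49 ± 0.14, adjusted p = 0.00035). Both day 7 arrays of CCN5 were below the signal floor of 6.64 and both day 14 arrays above it. COLEC12, a scavenger receptor with a collagen-like stalk, was at 7.94 and 7.71 at day 7 and at 9.20 and 9.14 at day 14, so the clones were alike on both days and did not overlap between them. Smaller rises were those of the laminin chain LAMA4, by 0.81, and of BMP1, which cleaves the ends off procollagens, by 0.61. Of 21 tested integrin and laminin genes 1 rose and 1 fell, against 2.03% and 8.25% of all genes. Among 22 tested genes of collagen folding and crosslinking BMP1 was the only rise and TMEM38B the only fall. The BMP1 call was lost in 3 of the 11 alternatives that kept all arrays compared. LARP6, which binds collagen mRNAs, rose from 8.67 and 8.12 to 9.65 and 9.05.

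Type I collagen and the other bone matrix genes did not pass. COL1A1 was at 12.95 and 13.28 at day 7 and at 13.14 and 12.60 at day 14, with the days overlapping and the clones moving in opposite directions. None of the 10 tested non-collagenous bone matrix and osteocyte genes was called, against 2.03% rises and 8.25% falls over all genes. SPARC, a collagen-binding matrix protein, changed by -0.04 ± 0.15. BGLAP had no probe set that named it alone and SPP1 was below the signal floor. Lumican (LUM), a small proteoglycan of collagen fibrils, was high on all arrays and fell from 11.70 and 11.53 to 11.12 and 10.66 (adjusted p = 0.031). ADAMTS5, a protease that cuts aggrecan, fell by 0.93 on the log2 scale, although its arrays overlapped because wt36 was lower than wt22 on both days.

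Of 16 tested genes of mineralization, phosphate transport and hormone receptors 1 rose and none fell, against 2.03% and 8.25% of all genes. The rise was SMPD3, a neutral sphingomyelinase needed for bone mineralization. It was at 6.47 and 6.11 at day 7 and at 7.31 and 7.41 at day 14 (1.07 ± 0.18, adjusted p = 0.0047). All 4 values lie near the signal floor, with both day 7 arrays below it. ALPL was at 11.28 and 11.38 at day 7 and at 11.30 and 11.77 at day 14 (adjusted p = 0.28). Among 13 tested osteoblast transcription factors none rose and 1 fell, near the share over all genes of 8.25%. The fall was the zinc finger gene ZFHX4 (-0.70, adjusted p = 0.044). RUNX2 was at 12.31 and 12.25 at day 7 and at 11.71 and 11.82 at day 14. Its day 14 arrays were both below those of day 7, at an adjusted p of 0.017, but the change of -0.51 was short of 1.5-fold. SP7 was at 8.34 and 7.43 at day 7 and at 8.41 and 7.85 at day 14, where the clones differed more than the days (adjusted p = 0.27).

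**Figure D3:**
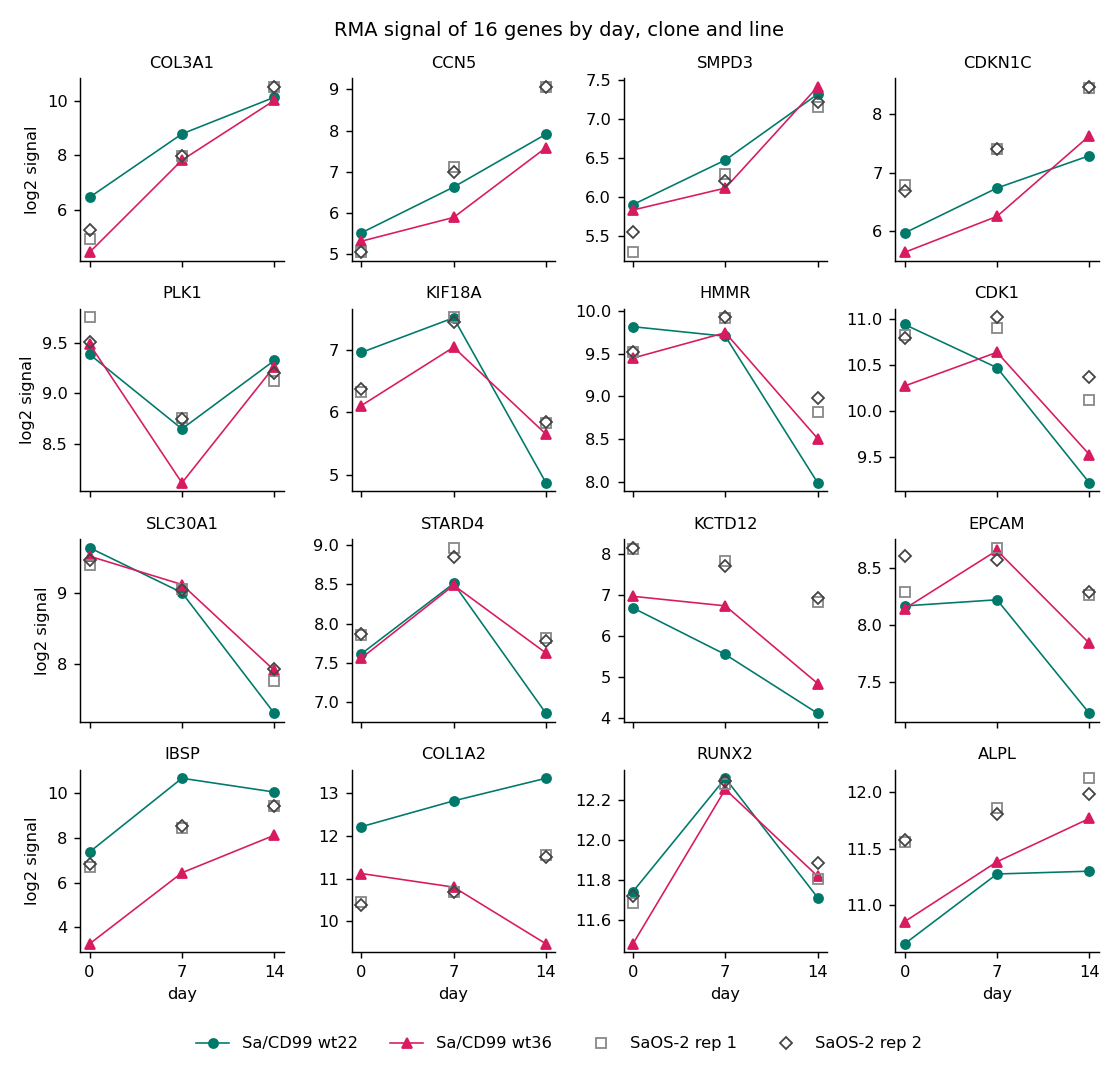
Log2 RMA signal (vertical axes, each with its own range) of 16 genes on days 0, 7 and 14 (horizontal axis) in clones wt22 and wt36 of Sa/CD99, joined by lines, and in the 2 SaOS-2 arrays of each day as open symbols. COL3A1, CCN5 and SMPD3 are higher and KIF18A, HMMR and SLC30A1 lower at day 14 than at day 7 in both clones, while the clones part in IBSP and COL1A2.

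Genes of cell division moved in both directions. Entry into mitosis is driven by CDK1 with cyclin B, chromosomes are held to the spindle by kinetochore proteins and motors, and PLK1 and AURKB are kinases that act at several of these steps. KIF18A, a kinesin that keeps chromosomes aligned at the spindle equator, had the largest fall of all genes. It was at 7.51 in wt22 and 7.04 in wt36 at day 7 and at 4.88 and 5.65 at day 14 (-2.01 ± 0.29, adjusted p = 0.0026), which is below the signal floor at day 14. Of the 35 tested genes of the mitosis list 8 fell and 1 rose, against 8.25% and 2.03% of all genes, and the median of the list was -0.02. HMMR, a spindle and hyaluronan-binding protein, was at 9.71 and 9.75 at day 7 and at 7.99 and 8.51 at day 14 (-1.48 ± 0.19, adjusted p = 0.0014). Its day 7 arrays were nearly equal and lay above both day 14 arrays. CDK1 fell from 10.47 and 10.64 to 9.21 and 9.52, the kinetochore motor CENPE by 1.29, the checkpoint kinase TTK by 1.28 and the spindle pole protein ASPM by 1.27 on the log2 scale. NUF2, TOP2A and CENPF, named here after their values were seen, made up the rest of the falls.

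PLK1, also named after its value was seen, was the rise. It was at 8.65 and 8.11 at day 7 and at 9.33 and 9.27 at day 14 (0.92 ± 0.19, adjusted p = 0.010). AURKB changed by 0.54 (adjusted p = 0.012) and CDC20 by 0.41 (adjusted p = 0.042), both higher at day 14 in both clones and both short of 1.5-fold. CCNB1 was at 10.53 and 10.81 at day 7 and at 10.86 and 10.70 at day 14, with overlap. MKI67, the usual marker of cycling cells, was at 8.77 and 8.55 at day 7 and at 8.51 and 8.67 at day 14 (adjusted p = 0.71). The 8 genes that fell have a median genomic span of 35.8 kb and the 27 others one of 19.9 kb, while PLK1 spans 11.5 kb.

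Promoters of PLK1 and HMMR, a gene of the list that rose and one that fell, are shown because both hold the same element. Many late cell cycle genes carry a cell cycle genes homology region, here searched as TTTGAA on both strands. It occurred in 21 of the 28 tested mitosis genes with a promoter in the RefSeq table (GRCh38.p14, 300 bases around the gene's start) and in 15.4% of all 27305 promoters. Among the 21 were 6 that fell and 1 that rose, and among all 28 were 7 that fell. Of all genes tested 8.25% fell and 2.03% rose. A link of the element to the direction of change was not tested. Capitals mark the matches in the windows chr16:23678639-23678938 and chr5:163460382-163460681, both on the plus strand.
PLK1: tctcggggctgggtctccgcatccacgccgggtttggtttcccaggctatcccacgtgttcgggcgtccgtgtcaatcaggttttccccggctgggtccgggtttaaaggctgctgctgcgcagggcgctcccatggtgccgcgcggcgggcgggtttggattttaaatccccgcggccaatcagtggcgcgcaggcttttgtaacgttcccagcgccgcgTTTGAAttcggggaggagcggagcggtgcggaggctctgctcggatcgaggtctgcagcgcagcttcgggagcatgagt
HMMR: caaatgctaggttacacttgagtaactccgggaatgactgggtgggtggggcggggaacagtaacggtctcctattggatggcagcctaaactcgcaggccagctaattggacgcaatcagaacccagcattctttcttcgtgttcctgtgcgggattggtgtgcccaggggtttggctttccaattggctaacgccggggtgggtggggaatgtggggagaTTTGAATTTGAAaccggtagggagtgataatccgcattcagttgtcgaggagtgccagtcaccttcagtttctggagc
A match is a description of the sequence and not evidence of a bound site.

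The cell cycle brake CDKN1C, an inhibitor of cyclin-dependent kinases, was the called gene among 20 tested inhibitors, D-type cyclins and p53 targets. A single rise and no fall in that list stand against 2.03% and 8.25% of all genes. CDKN1C rose from 6.74 and 6.25 to 7.29 and 7.63 (0.96 ± 0.18, adjusted p = 0.0070), and no day 14 array overlapped a day 7 array. In the list of DNA replication and S phase 2 of 39 tested genes rose and 2 fell, against 2.03% and 8.25% of all genes. CDT1, a licensing factor of replication origins, was at 8.95 and 8.96 at day 7 and at 9.68 and 9.65 at day 14, and the replication helicase subunit GINS4 rose by 0.67. CCNE2, cyclin E2, fell from 10.06 and 9.33 to 8.58 and 8.44, and the DNA polymerase alpha subunit POLA1 fell by 0.60 on the log2 scale. None of the 9 tested replication-dependent histone genes was called, again against 2.03% and 8.25%.

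The gene of a zinc exporter fell, and no metallothionein gene passed. SLC30A1, which carries zinc out across the plasma membrane, was at 9.001 in wt22 and 9.12 in wt36 at day 7 and at 7.30 and 7.91 at day 14 (-1.46 ± 0.17, adjusted p = 0.0010). Both day 14 arrays lay below both day 7 arrays, with changes of -1.70 and -1.21. The importer SLC39A10 fell by 0.70 on the log2 scale, and no other of the 11 tested genes of metallothioneins and zinc transport passed. The share of falls over all genes was 8.25%. MT1X was at 11.21 and 11.19 at day 7 and at 11.48 and 11.26 at day 14 (adjusted p = 0.38), and MT2A changed by 0.13 ± 0.14. SLC30A1 and the metallothioneins are known targets of the zinc sensor MTF1, which binds metal response elements. A form of the element's core, TGCACNC, was searched on both strands. It was found in the promoters of SLC30A1, MT1X, MT2A and MT1H, 4 of the 7 members with a promoter in the table, and in 11.9% of all promoters. The promoters of SLC30A1 (chr1:211579112-211579411, minus strand) and MT1X (chr16:56682220-56682519, plus strand) are given because the pair differed in response, with the matches in capitals.
SLC30A1: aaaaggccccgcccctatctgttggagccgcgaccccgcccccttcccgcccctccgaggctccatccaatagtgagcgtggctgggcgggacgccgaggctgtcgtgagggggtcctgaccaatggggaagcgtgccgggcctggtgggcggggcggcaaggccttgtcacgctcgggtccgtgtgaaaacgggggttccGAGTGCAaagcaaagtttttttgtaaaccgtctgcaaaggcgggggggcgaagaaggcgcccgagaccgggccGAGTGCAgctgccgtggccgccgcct
MT1X: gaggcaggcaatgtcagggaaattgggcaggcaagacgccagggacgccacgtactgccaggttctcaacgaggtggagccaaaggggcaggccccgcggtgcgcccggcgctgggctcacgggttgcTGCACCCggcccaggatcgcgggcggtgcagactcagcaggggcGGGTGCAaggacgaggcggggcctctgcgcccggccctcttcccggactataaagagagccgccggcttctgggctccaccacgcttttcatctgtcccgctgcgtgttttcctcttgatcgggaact
Each window holds 2 matches to TGCACNC. Other forms of the core, such as TGCGCCC, which occurs in the MT1X window, were not searched. The element content of the windows was therefore not compared.

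Sterol genes fell in part. Of 18 tested genes of sterol synthesis and uptake 4 fell and none rose, against 8.25% and 2.03% of all genes. The median of the list was -0.19 against 0.07 over all genes. STARD4, which carries cholesterol between membranes, was at 8.51 and 8.49 at day 7 and at 6.85 and 7.62 at day 14 (-1.26 ± 0.19, adjusted p = 0.0030), where wt22 ended clearly lower than wt36. HMGCS1, an early enzyme of the mevalonate pathway, fell by 0.93, the sterol desaturase SC5D by 0.88 and the isomerase IDI1 by 0.67 on the log2 scale. In the first week, which shares the day 7 arrays, the changes were 1.46 for HMGCS1, 1.12 for IDI1, 0.92 for STARD4 and -0.03 for SC5D. The fatty acid elongase ELOVL6 fell by 0.84 on the log2 scale, the only call among 19 tested genes of fatty acid synthesis, lipid storage and adipogenesis. That single fall stands against 8.25% of all genes.

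Most tested genes of the signalling lists were not called. Of 17 tested genes of BMP signalling 3 fell and none rose, against 8.25% and 2.03% of all genes: the receptor BMPR2, from 9.03 and 9.38 to 7.94 and 8.53, the extracellular modulator TWSG1 (-0.60) and the transducer SMAD1 (-0.59). The list had the lowest median of those with at least 10 tested genes, at -0.32. In TGF-beta signalling 2 of 25 rose and 2 fell, the falls near the share over all genes. The repressor SKIL went from 8.19 and 8.27 to 6.99 and 7.23, and the activin subunit INHBA fell by 0.70 on the log2 scale, while the ligand TGFB1 rose by 0.59 and the focal adhesion protein TGFB1I1 by 0.77. Among 12 tested genes of the insulin-like growth factor list 2 rose, against 2.03% of all genes, and none fell, against 8.25%. The list also holds receptors and proteins that bind IGF2 mRNA. The rises were the binding protein IGFBP4 by 0.65 and the mRNA-binding protein IGF2BP2 by 0.60. The call of IGF2BP2 was lost in 4 of the 11 alternatives that kept all arrays compared. Of 10 tested Notch genes 2 fell, against 8.25% of all genes. These were RBPJ, the DNA-binding partner of Notch, at -0.86 and the ligand JAG1 at -0.59. The Wnt co-receptor LRP6 fell by 0.62, the cytokine co-receptor IL6ST by 0.77 and the integrin ITGAV by 0.92 on the log2 scale. EPCAM, an epithelial adhesion molecule, was at 8.22 and 8.65 at day 7 and at 7.22 and 7.84 at day 14 (adjusted p = 0.017). The 7 epithelial markers, EPCAM among them and KRT18 the other above the floor, summed to 687 to 989 in linear signal at day 7 and to 669 to 674 at day 14.

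Interferon and heat shock genes were called more often as falling than as rising, as were genes in general (803 falls and 198 rises). Of 23 tested interferon response genes 4 fell (SAMD9, IFI44, GBP3 and IFIT5) and 1 rose (IFITM1), against 8.25% and 2.03% of all genes, and the median of the list was -0.03. IFI44 was at 9.70 and 9.41 at day 7 and at 8.30 and 8.45 at day 14, whereas the core induced genes IFIT1, ISG15 and IFI6 were not called. Of 18 heat shock genes and chaperones 3 fell, also against 8.25%, and none rose. These were DNAJB4 (-1.30), HSPH1 (-0.78) and HSP90AA1 (-0.61), in a list with a median of 0.00. The apoptosis inhibitors BIRC2 (-0.96) and XIAP (-0.72) fell among 20 tested genes of their list, again against 8.25% of all genes. No gene was called among 36 of glycolysis and hypoxia, 25 of axon guidance, 19 of cytosolic ribosomal proteins and 15 of MHC class I and antigen processing. Over all genes 2.03% rose and 8.25% fell, so lists of these sizes would hold few calls at those shares. The ribosomal proteins kept within -0.14 and 0.12.

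**Figure D4:**
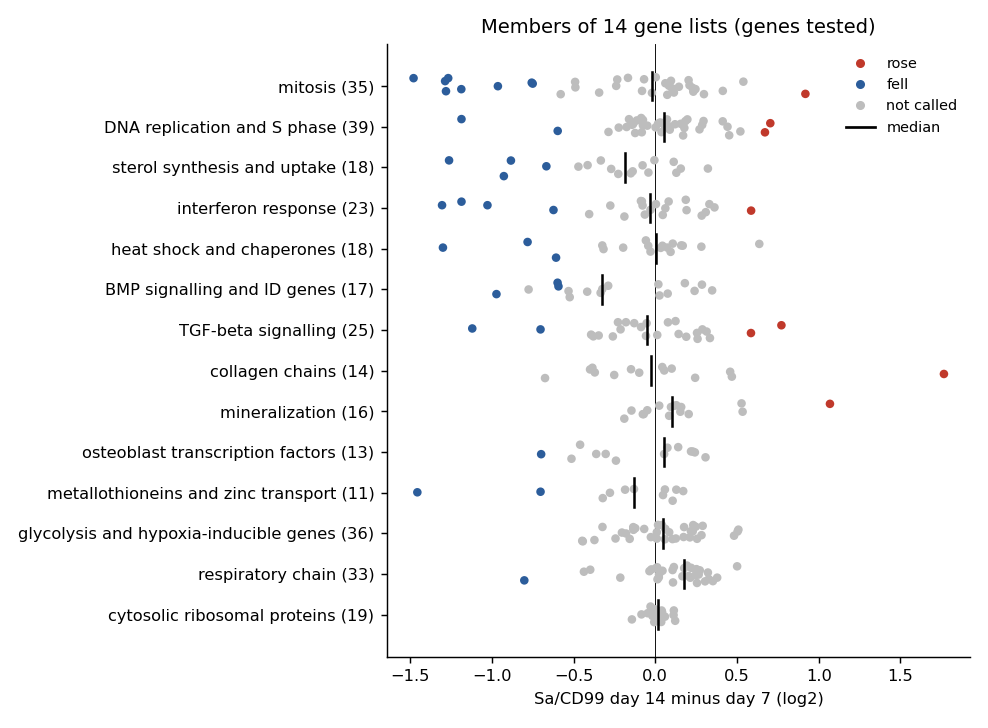
Log2 change from day 7 to day 14 in the arrays labelled Sa/CD99 (horizontal axis) for the tested members of 14 gene lists (rows, number tested in brackets), with genes that rose in red, fell in blue and were not called in grey, and the list's median as a black bar. Mitosis has 8 falls and 1 rise, while the ribosomal proteins cluster at 0.

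Outside the lists, the largest falls were of genes with varied roles. After KIF18A came the corepressor LCOR, at 8.05 and 8.11 at day 7 and 6.11 and 6.33 at day 14 (-1.86 ± 0.20, adjusted p = 0.00058). The endoplasmic reticulum cochaperone DNAJB14 (-1.82), the zinc finger genes ZBTB41 (-1.79) and ZNF292 (-1.74), the nuclear import receptor KPNA5 (-1.73) and the translesion DNA polymerase POLK (-1.57) were of like size. TAF1D, a subunit of the RNA polymerase I selectivity factor, went from 7.41 and 7.55 to 5.78 and 5.94. At day 14 the values of LCOR, DNAJB14, ZBTB41 and TAF1D were below the signal floor in both clones. KCTD12, a GABA-B receptor subunit, was at 5.55 and 6.74 at day 7 and at 4.12 and 4.84 at day 14. Of these only wt36 at day 7 was above the signal floor, and the gene passed it through the parental and day 0 arrays. In this gene the fall was larger in wt36, and it was the only one of the 20 largest falls of which that was true. NEMF, which acts on stalled ribosomes, fell in all 4 of its probe sets. Of the 225 tested genes named ZNF, a family picked after values were seen, 42 fell (18.7%, against 8.25% of all genes) and 5 rose, and their median change was -0.02.

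Several of the largest rises were of unrelated cell functions. The long non-coding RNA PCAT6 went from 5.99 and 5.84, both below the signal floor of 6.64, to 7.54 and 7.09. The microsomal epoxide hydrolase EPHX1 went from 10.01 and 9.53 to 10.78 and 10.95. LBP, the lipopolysaccharide-binding protein, was at 7.80 and 8.21 at day 7 and at 8.51 and 9.71 at day 14 (1.10 ± 0.31, adjusted p = 0.033), with wt36 moving further. The Golgi matrix protein GOLGA2, the microtubule kinase MARK4, the plasma membrane chaperone BSG and the protocadherin DCHS1 also rose, with GOLGA2 at 1.03, MARK4 at 1.01 and DCHS1 at 1.06, while BSG went from 10.99 and 10.23 to 11.63 and 11.59. The endothelial transcription factor SOX18 rose from 6.03 and 6.39, both below the signal floor, to 6.65 and 7.79. However, the 7 endothelial markers were all below that floor. Their summed linear signal was 187 to 203 at day 7 and 217 to 255 at day 14, and its part in the result was not tested.

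Called genes differed in length. The median genomic span was 59.2 kb for the 803 genes that fell, 15.7 kb for the 198 that rose and 30.8 kb for all with a span in RefSeq. Among the 2432 genes of shortest span 2.63% fell and 3.33% rose, and among the 2432 of longest span 13.5% fell and 1.19% rose. In the parental arrays 2.84% of the former and 16.9% of the latter fell. The GC content of the promoter window had a median of 64.3% for the genes that fell, 68.3% for those that rose and 65.7% over all. Probe sets that name no gene fell in 264 of 1321 cases, against 8.25% of those standing for a gene. The part of span, GC content or probe set position in the results was not tested.

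Day 0 values put the second week beside the first, as a description only. Genes called between day 7 and day 14 were chosen on arrays that both other intervals share, which by itself pulls the first-week change to the opposite sign and the change from day 0 to day 14 to the same one. The 803 genes that fell had a median change of 0.35 from day 0 to day 7 and of -0.55 from day 0 to day 14. The 198 that rose had medians of -0.35 and 0.35, and all genes of -0.03 and 0.02. COL3A1 was at 6.46 and 4.44 at day 0, so it was higher on each later day in both clones. PLK1 was at 9.39 and 9.49 at day 0, close to its day 14 values, with day 7 the low point. KIF18A was at 6.96 and 6.11 at day 0, above day 14 in both clones. SLC30A1 was at 9.63 and 9.52 at day 0 and so was lowest at day 14.

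The parental line gave the same interval without the transfection. There 429 genes rose (4.41%) and 941 fell (9.67%). Of the 803 genes that fell in the arrays labelled Sa/CD99, 675 were also called as falling in SaOS-2, which is 84.1% of the former and 71.7% of the latter. Of the 198 that rose 120 did so in SaOS-2, or 60.6% and 28.0%. No gene was called in opposite directions. The arrays of the lines are separate, though the day 7 controls were low in both. Across the 9731 genes the changes in the 2 lines had a correlation of 0.91, again a description across genes. COL3A1 changed by 2.52 in SaOS-2, KIF18A by -1.64 and SLC30A1 by -1.21.

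**Figure D5:**
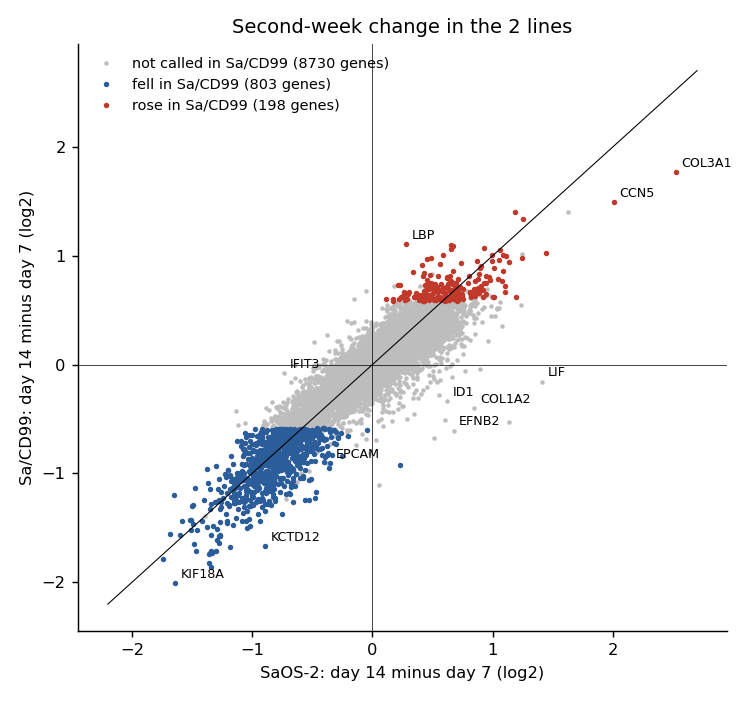
Log2 change from day 7 to day 14 in SaOS-2 (horizontal axis) and in the arrays labelled Sa/CD99 (vertical axis) for the 9731 genes, with the genes that rose in Sa/CD99 in red, those that fell in blue and the line of equal change in black. The genes lie along the line, and LIF, COL1A2, EFNB2 and ID1 are below it on the right.

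The test of the difference between lines called no gene (0 of 9731, 0%, limma), with a lowest adjusted p of 0.960 and 358 genes at an unadjusted p under 0.05. The median SE of the difference was 0.15 over genes, and the half-width of its 95% interval had a median of 0.35 over probe sets. Without wt22 at day 14, 10 genes were called, each with the lower change in Sa/CD99. The smallest unadjusted p, 8.1e-05, was that of ID1, a BMP-induced inhibitor of differentiation, named after its value was seen. It was at 7.44 and 7.38 at day 7 and 7.01 and 7.13 at day 14 in the clones, and at 7.30 and 7.22 and then 7.83 and 7.93 in SaOS-2. The difference of -0.96 ± 0.15 had an adjusted p of 0.960. The cytokine LIF followed, with a difference of -1.57 ± 0.30, and then the interferon-induced IFIT3, with 0.66 ± 0.12, both also at an adjusted p of 0.960. The single gene that fell in the clones and had a positive value in SaOS-2 was SERPINA1, a protease inhibitor, at -0.93 and 0.23, and its difference did not pass either.

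The genes in which the clones' changes differed most are described here without a test. COL1A2, the second chain of type I collagen, went from 12.82 to 13.35 in wt22 and from 10.80 to 9.47 in wt36. IBSP went from 10.67 to 10.05 in wt22 and from 6.44 to 8.12 in wt36, where its day 7 array was below the signal floor. SELENOP, a selenium carrier, went from 10.44 to 9.47 in wt22 and from 8.54 to 9.90 in wt36. The smooth muscle calponin CNN1 went from 7.57 to 8.86 and from 8.46 to 7.96, and MAP3K7CL from 6.57 to 7.93 and from 7.17 to 5.95. PLK2, a stress-induced kinase, and the ephrin EFNB2 had higher values at day 14 in wt22 (6.22 to 6.72 and 8.14 to 8.43) and lower ones in wt36 (7.67 to 6.35 and 9.15 to 7.64). In IBSP and COL1A2 the clones lay further apart than the days at day 7.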

How the data were processed

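RNA samples were profiled on 12 Affymetrix HG-U133 Plus 2.0 arrays. The deposited table holds log2 signals, which the authors made by RMA (affy and RMA in the submitters' processing notes, no version given). All its value columns were used. Members and lists were chosen with earlier results of these data known. Of 54675 probe sets 62 are controls, and 18677 were above a signal of 100 in at least 4 arrays. Of these 16527 name 1 gene, 829 several and 1321 none, and symbols were updated to RefSeq by gene ID for 16523. With limma 3.58.1 (R 4.3.3), 6 group means and a clone term were fitted to the 12 arrays, with array weights per line (0.496 and 2.02), and Benjamini-Hochberg adjustment ran over all 18677 probe sets. Calls needed an adjusted p of at most 0.05 and 1.5-fold. The clone pairs the arrays because it is 1 cell line on each day: the difference between clones correlated between days (r = 0.55, 0.31 and 0.61). The fit was tested on simulated data. Named genes were the 20 largest called rises and falls without overlap, up to 5 called members per list (where none was called, up to 2 of largest change), 10 fixed bone and cycle genes, up to 10 with the largest difference between clones and up to 12 called genes with the largest difference between lines. Some genes of these sets are left unnamed. 38 lists held 1047 genes, of which 721 were tested. Alternatives changed the block, weights, arrays, filters, normalization, prior and probe set rule. With 2 arrays per group, the number of arrays limits the precision.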

Additional observations from a re-analysis of the deposited data

Results flagged for a closer look

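The poly-A control probe sets lie outside the measurement of the cells' own genes and still differed between the days compared. Their mean over 24 probe sets was 4.02 log2 units higher at day 14 than at day 7 in the arrays labelled Sa/CD99, and 4.03 higher in SaOS-2. The day 0 arrays were like those of day 14. The hybridization controls differed by -0.12 and 0.21. The part of this difference in preparation in the gene results was not tested.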

How the results depend on the processing

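Counts below are of called genes. Against 198 rises in the arrays labelled Sa/CD99, 125 were found without the clone block and 317 after another quantile normalization, where SaOS-2 had 712 rises against 429. Centring each array on its median gave 662 rises in SaOS-2. Leaving out each of the 12 arrays in turn gave 12 to 308 rises and 64 to 963 falls in Sa/CD99 and 0 to 10 falls in the difference between lines. From day 0 to day 7, with 573 rises and 534 falls, it gave 178 to 776 rises and 127 to 553 falls. All other counts stayed within 1.5 times under the 11 alternatives that kept all arrays compared. The unblocked fit lost 35 of the 104 called genes named or checked and changed no direction. The fit to the Sa/CD99 arrays alone lost 24 of the 104, and there 165 genes rose and 569 fell. Losses by array left out were 83 without wt22 and 80 without wt36 at day 7, 61 without wt22 and 26 without wt36 at day 14, and at most 4 for any other array. The 13 genes called under every alternative that tested them were CCN5, COLEC12, PCAT6, HMMR, KCTD12, SLC30A1, LCOR, TAF1D, DTWD1, GOLGA8A, MANEA, TTC14 and C21orf91. No called gene changed direction. The log2 change of 14 uncalled genes changed sign with an array left out: MKI67 (-0.22 to 0.086), MAP3K7CL (-1.12 to 1.25), CNN1 (-0.36 to 1.15), IFIT3 (-0.20 to 0.040), CCNB1 (-0.10 to 0.33), IBSP (-0.59 to 1.65), COL1A1 (-0.60 to 0.10), SPARC (-0.34 to 0.26), SELENOP (-1.17 to 1.56), PLK2 (-1.10 to 0.27), LIF (-0.80 to 0.48), MT2A (-0.10 to 0.36), EFNB2 (-1.41 to 0.20) and COL1A2 (-1.56 to 0.76). The cause of these changes was not tested, beyond the loss of an array itself. Probe sets near the signal floor, such as those of CCN5 and KIF18A, have values close to background on one of the days.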
